A study of Mus musculus with 5 samples.

Results

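The circadian clock genes described here are 10 genes picked by symbol, Arntl, Clock, Per1, Per2, Per3, Nr1d1, Nr1d2, Dbp, Tef and Ciart, out of 55471 genes in the deposited tables. All 10 were found and all 10 passed the filter on low counts. They were measured by RNA sequencing of frozen colon from 11-week-old male C57BL/6 mice, collected 3 days after colitis had been started with TNBS, a hapten that inflames the colon. The mice had been given vehicle (2 libraries) or propyzamide, a herbicide (3 libraries), and every library came from a TNBS-treated animal. The series asks what the herbicide does in this model of inflammatory bowel disease. The sources used here give neither the hour of day at which the mice were killed nor the dose or the segment of colon. In a piece of whole tissue, fewer cells of a type and less RNA per cell cannot be told apart.

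The clock is a feedback loop of transcription. ARNTL (also called BMAL1) and CLOCK form a pair that binds E-boxes and switches on Per, Cry, Nr1d1, Nr1d2, Dbp, Tef and Ciart. PER and CRY proteins then restrain the pair, while NR1D1 and NR1D2, the REV-ERB nuclear receptors, silence Arntl through a ROR/REV-ERB element. DBP and TEF are transcription factors of the PAR bZIP family that act on D-boxes. In peripheral mouse tissues Arntl transcripts are known to peak around the change from night to day, and Clock transcripts to follow with a shallow rhythm, whereas transcripts of the other members peak between daytime and the early night. Arntl and Clock are therefore called the Arntl-phase pair below, and the other 8 genes the Dbp-phase genes. Samples taken at some pairs of different hours would be predicted to differ in opposite directions in these groups. The Dbp-phase genes do not all peak at the same hour, so other pairs of hours could split them.

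RefSeq promoter windows of build GRCm38.p6, from 250 bases before to 50 bases after a start site, were matched for 9 of the 10 members, all but Per2, in 14 windows. The stretches shown hold the DNA elements through which the loop is wired, with the element in capitals, each read 5′ to 3′ on the gene's strand. The E-box CACGTG, which reads the same on both strands, stood in 3 members, Ciart, Per1 and Tef, and in 7.15% of all 32851 windows. Ciart carried 3 copies, beginning 116, 58 and 44 bases before its start (chr3:95882247-95882364, minus strand). Per1 carried 1 (chr11:69098763-69098808, plus strand), and each of the 2 Tef starts carried 1 (chr15:81802526-81802571 and chr15:81811256-81811301, plus strand).
Ciart: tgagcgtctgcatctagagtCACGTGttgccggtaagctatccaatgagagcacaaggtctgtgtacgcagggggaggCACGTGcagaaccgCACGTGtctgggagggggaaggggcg
Per1: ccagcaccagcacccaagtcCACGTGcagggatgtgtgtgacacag
Tef, first start: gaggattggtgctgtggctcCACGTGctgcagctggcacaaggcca
Tef, second start: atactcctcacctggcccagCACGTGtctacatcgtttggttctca

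The D-box TTANGTAA, searched on both strands, stood 2 times before the Per3 start (chr4:151044796-151044890, minus strand) and in 2.32% of all windows. One form of the ROR/REV-ERB element, AANT directly followed by AGGTCA and also searched on both strands, began 27 bases after 1 of the Arntl starts (chr7:113207528-113207557, plus strand) and in 0.219% of all windows. These matches are descriptions of the sequence. No match in the other windows says only that these letters are not in them.
Per3: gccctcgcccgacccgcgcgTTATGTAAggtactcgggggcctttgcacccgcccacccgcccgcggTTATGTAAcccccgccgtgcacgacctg
Arntl: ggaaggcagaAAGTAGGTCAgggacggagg

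The libraries were shallow and uneven, and vehicle replicate 2 stood apart from the other 4 in most of the Dbp-phase genes. Results are therefore also given with either vehicle library left out. Each of the 5 libraries held between 1573700 (vehicle replicate 1) and 2706885 (propyzamide replicate 1) estimated counts. Once rRNA-like loci and mitochondrial genes were set aside, each held between 823560 and 1328836. The density of counts on 1974 olfactory and vomeronasal receptor genes, which serve as a measure of background, came to 0.886 and 0.562 per exonic kilobase in the vehicle libraries and to 0.0583, 0.461 and 0.137 in the propyzamide libraries. The second index sequence was not shared between the groups, so it and the treatment cannot be told apart. Levels are given in CPM, counts scaled to a common library size with TMM factors, and differences as log2 fold changes of propyzamide over vehicle from edgeR's quasi-likelihood test, adjusted over 12024 tested genes.

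Of the 10 clock genes 1, Nr1d1, passed the test. It was lower in propyzamide, where 1.21% of all tested genes were called lower and 1.90% were called in either direction. At an unadjusted p under 0.05 stood 3 members (Nr1d1, Per3 and Tef), all lower in propyzamide, where the share of all genes lower at that level was 9.65%. The other 9 members missed the adjusted threshold. In simulated data the test called 6.17% of 2-fold and 42.9% of 4-fold changes, so a miss does not show an unchanged level. In the Dbp-phase genes 6 of 8 log2 fold changes were below 0, with a median of -1.01, and in the Arntl-phase pair both were near 0, at 0.035 and 0.012. Over all tested genes the median was -0.018 and 50.9% were below 0.

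**Figure D1:**
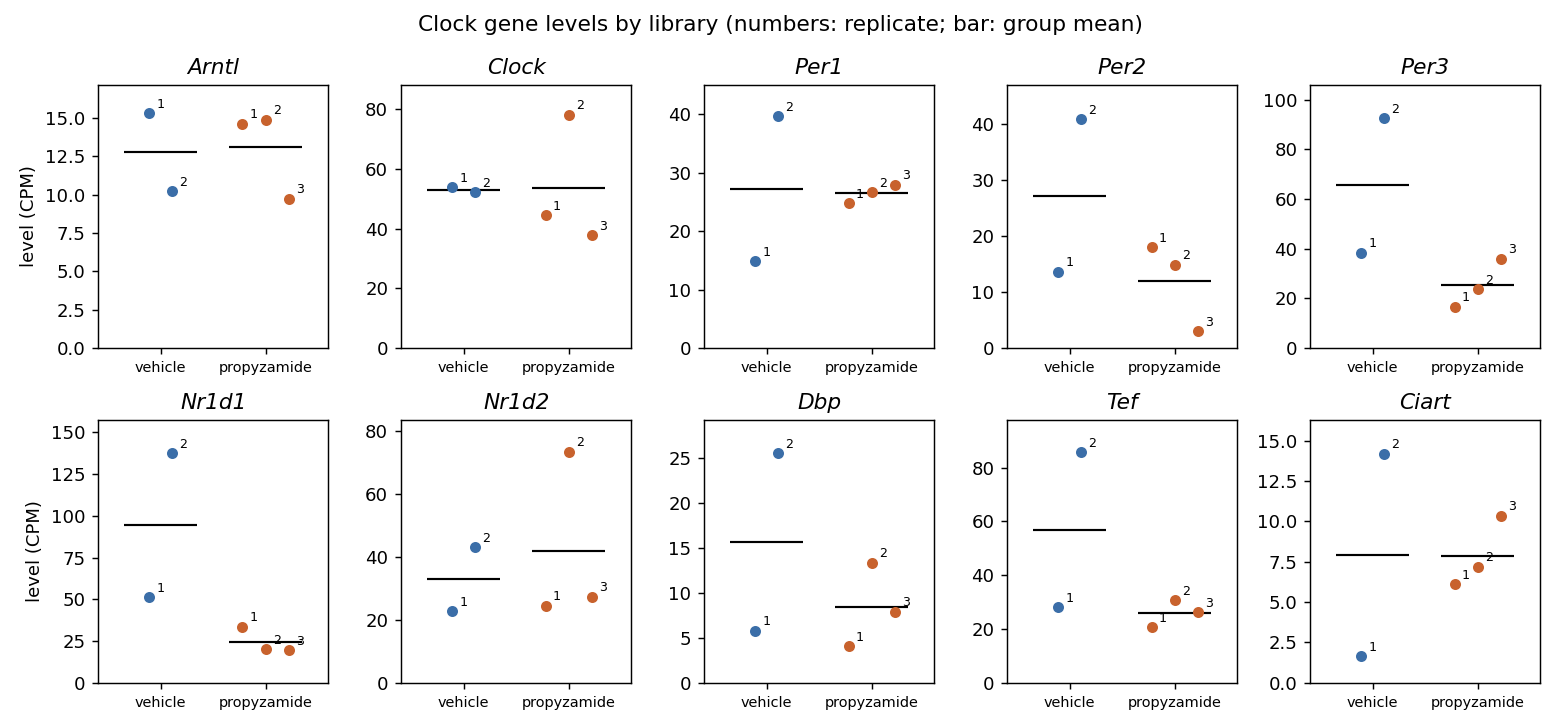
Level of each clock gene in CPM (vertical axis, linear, from 0) in the vehicle and propyzamide libraries. Each point is 1 library with its replicate number and each bar is the group mean. Vehicle replicate 2 is the highest of the 5 libraries for 7 of the 8 Dbp-phase genes, while Nr1d1 and Per3 are the members whose groups do not overlap.

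Arntl (ENSMUSG00000055116.8; GRCm38 chromosome 7, 113207465 to 113314126, plus strand) encodes the obligate partner of CLOCK. It stood at 15.3 and 10.2 CPM in vehicle and at 14.6, 14.9 and 9.74 CPM in propyzamide. The lowest level in each group was close to the other's lowest, and the groups overlapped fully. Its log2 fold change was 0.035 ± 0.48 (SE; edgeR adjusted p = 0.980). These levels rest on 37, 18, 43, 29 and 16 counts, and the background expected for its exonic length was 6.67 and 4.23 counts in vehicle against 0.439 to 3.47 in propyzamide.

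Clock (ENSMUSG00000029238.11; chromosome 5, 76209868 to 76304792, minus strand) encodes the partner of ARNTL. Its level was 53.8 and 52.2 CPM in vehicle and 44.5, 78.0 and 37.7 CPM in propyzamide. The vehicle libraries lay between the propyzamide libraries. With a log2 fold change of 0.012 ± 0.39 (SE; edgeR adjusted p = 0.992), no difference was seen beyond the spread. The sign of these near-zero values for Arntl and Clock turned with the scaling, at -0.089 and -0.12 with upper-quartile scaling.

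Per1, Per2 and Per3 encode the period proteins, which with the cryptochromes form the repressing limb. Per1 (ENSMUSG00000020893.17; chromosome 11, 69095217 to 69109960) stood at 14.9 and 39.7 CPM in vehicle and at 24.8, 26.7 and 28.0 CPM in propyzamide. All 3 propyzamide libraries fell between the vehicle libraries, and the log2 fold change was -0.030 ± 0.44 (SE; edgeR adjusted p = 0.981). Per1 is also known as an immediate target of glucocorticoid and stress signals.

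Per2 (ENSMUSG00000055866.9; chromosome 1, 91415982 to 91459324) stood at 13.6 and 40.9 CPM in vehicle and at 18.0, 14.9 and 3.04 CPM in propyzamide. Vehicle replicate 2 was high and propyzamide replicate 3 was low, the latter on 5 counts with an exact Poisson 95% interval of 0.988 to 7.10 CPM that covers counting error only. The log2 fold change was -1.13 ± 0.63 (SE; edgeR adjusted p = 0.374), and vehicle replicate 1 lay among the propyzamide libraries. Without vehicle replicate 2 Per2 stood at -0.10, and without vehicle replicate 1 at -1.75. Per3 (ENSMUSG00000028957.12; chromosome 4, 151003652 to 151044665) stood at 38.5 and 92.5 CPM in vehicle and at 16.7, 23.6 and 35.9 CPM in propyzamide. Its groups did not overlap, although propyzamide replicate 3 came close to vehicle replicate 1. At -1.37 ± 0.45 (log2 fold change, SE; edgeR adjusted p = 0.131) it missed the threshold. With the replicate number as a block Per3 stood at -1.59 and passed (edgeR adjusted p = 0.0233). Replicate 3 exists only in propyzamide, so in the block fit the difference rests on replicates 1 and 2. Leaving propyzamide replicate 3 out without a block gave -1.70 (edgeR adjusted p = 0.142). Without vehicle replicate 2 Per3 stood at -0.56, and without vehicle replicate 1 at -1.90.

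Nr1d1 (ENSMUSG00000020889.11; chromosome 11, 98767932 to 98775333, minus strand), the REV-ERB alpha receptor that represses Arntl, stood at 51.3 and 137 CPM in vehicle and at 33.6, 20.02 and 19.5 CPM in propyzamide. Both vehicle libraries were above all 3 propyzamide libraries. The vehicle mean was 94.3 ± 60.8 CPM (SD, n = 2) and the propyzamide mean 24.4 ± 8.03 CPM (SD, n = 3), a fitted level 3.81-fold lower (log2 fold change -1.93 ± 0.45, SE; edgeR adjusted p = 0.0494). Groups without overlap and lower in propyzamide were found for 2 of the 10 members, Nr1d1 and Per3, and for 20.8% of all tested genes, so that count is no larger than over all genes. The call lies just under the threshold. Without vehicle replicate 1 Nr1d1 stood at -2.50. Leaving out vehicle replicate 2 ended the call, with Nr1d1 at -1.0. So did fits without propyzamide replicate 2 (edgeR adjusted p = 0.0931) or replicate 3 (0.140). The call was also lost, with the difference as large or larger, in other fits. Nr1d1 stood at -2.12 with background subtracted (edgeR adjusted p = 0.0606) and at -1.93 with the offset for transcript length (0.0612). With limma on log2 TPM it stood at -2.11 with a pseudocount of 1 (adjusted p = 0.0629, or 0.123 without a variance trend) and at -2.24 with 0.1 (0.112, or 0.151). Nr1d1 passed in 10 of 19 alternatives and was below 0 in all 19. These are not all separate outcomes. The alternative at an adjusted p under 0.1 is the main fit, and limma with and without a trend shares its fold changes.

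Nr1d1 overlaps Thra, a thyroid hormone receptor gene on the opposite strand, over 263 exonic bases, 8.55% of those of Nr1d1. The vehicle libraries gave Thra 30 and 51 counts and the propyzamide libraries 64, 57 and 38, and it stood at 0.27 ± 0.44 (log2 fold change, SE; edgeR adjusted p = 0.812). No source used here says whether the counting used strand, so reads from that overlap cannot be assigned with certainty. Nr1d2 (ENSMUSG00000021775.11; chromosome 14, 18204054 to 18239127), the REV-ERB beta receptor and the closest relative of Nr1d1, stood at 22.7 and 43.1 CPM in vehicle and at 24.5, 73.4 and 27.4 CPM in propyzamide. Its highest library was propyzamide replicate 2, and the groups overlapped. At 0.35 ± 0.51 (log2 fold change, SE; edgeR adjusted p = 0.785) it missed the threshold, and the value turned negative in 6 of 19 alternatives.

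Dbp (ENSMUSG00000059824.12; chromosome 7, 45705088 to 45710203), a PAR bZIP factor and one of the most strongly rhythmic output genes, stood at 5.79 and 25.5 CPM in vehicle and at 4.08, 13.3 and 7.91 CPM in propyzamide. Vehicle replicate 1 lay inside the propyzamide range and replicate 2 above it. Its log2 fold change was -0.89 ± 0.68 (SE; edgeR adjusted p = 0.544). Dbp shares 539 exonic bases, 18.0% of its own, with the opposite-strand gene Sphk2, which stood at 0.040 ± 0.40 (log2 fold change, SE; edgeR adjusted p = 0.972).

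Tef (ENSMUSG00000022389.15; chromosome 15, 81802421 to 81826863), the related PAR bZIP factor, stood at 28.1 and 85.7 CPM in vehicle and at 20.7, 30.8 and 26.2 CPM in propyzamide. Vehicle replicate 1 was again inside the propyzamide range. At -1.13 ± 0.45 (log2 fold change, SE; edgeR adjusted p = 0.209) it missed the threshold. Without vehicle replicate 2 it was -0.069, and without vehicle replicate 1 it was -1.75.

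Ciart (ENSMUSG00000038550.10; chromosome 3, 95878503 to 95882251), also called CHRONO, encodes a repressor of the ARNTL and CLOCK pair. It stood at 1.65 and 14.2 CPM in vehicle and at 6.12, 7.19 and 10.3 CPM in propyzamide. The propyzamide libraries all lay between the vehicle libraries, and the log2 fold change was 0.020 ± 0.78 (SE; edgeR adjusted p = 0.993). The low vehicle value rests on 4 counts, where 2.00 were expected from background, and its exact Poisson 95% interval runs from 0.451 to 4.24 CPM. Without vehicle replicate 1 Ciart stood at -0.88, and without vehicle replicate 2 at 2.26.

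**Figure D2:**
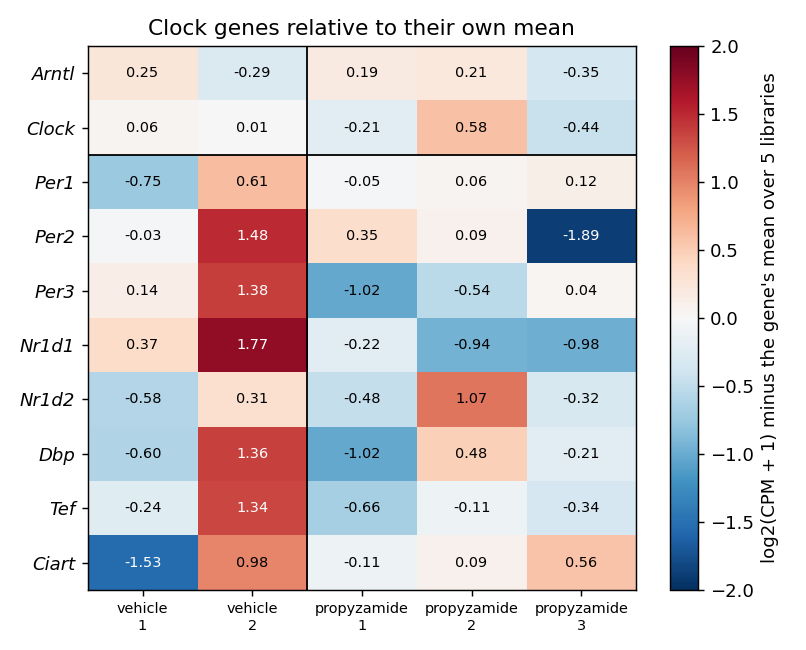
Log2(CPM + 1) of each clock gene minus its own mean over the 5 libraries (colour and printed value), with libraries in columns and genes in rows. The lines part vehicle from propyzamide and the Arntl-phase pair from the Dbp-phase genes. Vehicle replicate 2 is above 0 for all 8 Dbp-phase genes, from 0.31 for Nr1d2 to 1.77 for Nr1d1, and at -0.29 for Arntl.

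The 2 vehicle libraries were far apart in the Dbp-phase genes. Summed over the 8 Dbp-phase genes, the level was 177 CPM in vehicle replicate 1 and 479 CPM in vehicle replicate 2, against 149, 210 and 158 CPM in propyzamide. Vehicle replicate 1 was thus inside the range of the propyzamide libraries and vehicle replicate 2 above all of them. Vehicle replicate 2 was the highest library for 7 of the 8 Dbp-phase genes, all but Nr1d2, in CPM and also in TPM.

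On log2(CPM + 1), 7 of the 8 Dbp-phase genes were more than 1 higher in vehicle replicate 2 than in vehicle replicate 1, with a median of 1.46, whereas 8.98% of all tested genes were and their median was 0.0081. Ciart showed the largest of these differences, 2.52, and Nr1d2 the smallest, 0.89. Arntl went the other way, at -0.54, and Clock was at -0.042. On log2(TPM + 0.1) the median of all genes was itself -1.08 for this contrast, and the Dbp-phase median was 0.40, which is 1.49 above that of all genes. This contrast sets 1 library against another and was drawn up after the values were seen, so it carries no test. The same libraries also differed in tissue make-up. The summed level of 12 smooth-muscle markers was 602 CPM in vehicle replicate 1 and 4123 CPM in vehicle replicate 2, and that of 8 goblet-cell markers was 8648 and 3097 CPM. The part of these in the clock gene levels was not tested.

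The place of vehicle replicate 1 depended on the scale. In TPM the Dbp-phase genes summed to 95.2 and 128.6 in the vehicle libraries and to 48.6, 53.0 and 39.99 in the propyzamide libraries, so both vehicle libraries were above all 3 propyzamide libraries. Nr1d1 stood at 35.05 and 41.5 TPM in the vehicle libraries and at 14.0, 6.23 and 5.79 TPM in the propyzamide libraries. Its log2 difference between the vehicle libraries was 0.24 on log2(TPM + 0.1), which is 1.33 above the median of all genes for that contrast, and 1.40 on log2(CPM + 1). In TPM 5 members (Per1, Per2, Per3, Nr1d1 and Tef) were lower in propyzamide without overlap, and so were 22.4% of all tested genes. For Per1, 0.84 and 2.31 counts on a 496-base transcript gave 1.87 and 3.08 of its 7.83 and 9.96 TPM in vehicle. In propyzamide that transcript gave 0.37, 0 and 0 TPM, so the separation of Per1 in TPM rests partly on few counts. All tested genes had a median of -0.39 on log2(TPM + 1), against -0.018 from the counts, and all 10 members were below 0. The Dbp-phase median on that scale, -0.90, lay below that of all genes, and the Arntl-phase median, -0.36, was close to it.

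Morning and evening genes were then set side by side. With all libraries the median log2 fold change was 0.023 for the Arntl-phase pair and -1.01 for the Dbp-phase genes, so a negative median of the latter stood beside a median near 0 of the former. Without vehicle replicate 1 the medians were 0.18 and -1.69, and all 8 Dbp-phase genes were below 0. In that fit 5 of the 10 members had an unadjusted p under 0.05, against 9.38% of all genes. Without vehicle replicate 2 they were -0.058 and 0.25, with 4 Dbp-phase genes above 0 and 4 below, and 0 of the 10 members passed at an unadjusted p under 0.05, against 11.1% of all genes. Leaving out a propyzamide library kept the Dbp-phase median between -1.28 and -0.78. A vehicle group left with 1 library is assumed to vary like the other group. In CPM the direction of the Dbp-phase median therefore depends on vehicle replicate 2.

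**Figure D3:**
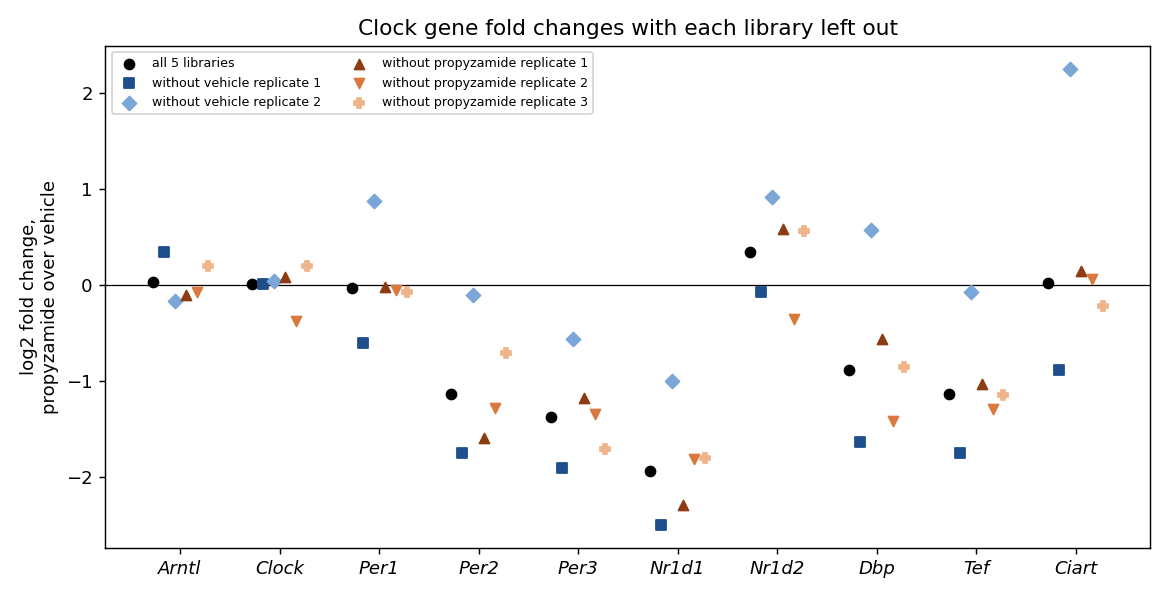
Log2 fold change of propyzamide over vehicle for each clock gene with all 5 libraries (black circles) and with each library left out (other symbols). Without vehicle replicate 2 Per1, Dbp and Ciart stand at 0.88, 0.58 and 2.26 and Tef at -0.069, whereas Nr1d1 is at -1.0 or lower in every fit drawn.

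The ratio of a gene to Arntl was also taken inside each library, with 1 CPM added to each level. For Nr1d1 this log2 ratio came to 1.68 and 3.62 in the vehicle libraries and to 1.15, 0.40 and 0.93 in the propyzamide libraries. The groups did not overlap, with a difference in means of -1.82. For Per3 the ratio was 1.28 and 3.06 against 0.18, 0.63 and 1.78, and for Dbp it was -1.26 and 1.24 against -1.62, -0.15 and -0.27, so both overlapped. The mean ratio was lower in propyzamide for 5 of the 8 Dbp-phase genes, and Per1, Nr1d2 and Ciart stood at 0.075, 0.19 and 0.42. With the authors' TPM values and 0.1 added, it was lower for 8 of 8, and Nr1d1 was again the gene whose groups did not overlap. On that scale the median log2 fold change of all tested genes was -0.47 and Arntl stood at -0.17. A typical gene was therefore also lower relative to Arntl. The 8 ratios all share the Arntl level, so they are not separate observations.

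Levels between genes can be set in order only per length, here by TPM. In vehicle Nr1d1 led with 38.3 ± 4.53 TPM (SD, n = 2), clear of Tef at 15.7 ± 5.28. From Tef through Per3 (14.3 ± 1.18), Dbp (12.6 ± 7.69), Clock (11.6 ± 6.61) and Nr1d2 (11.0 ± 2.60) neighbours lay within their spread. The same held for the steps down through Per1 (8.89 ± 1.51), Ciart (6.47 ± 4.93) and Arntl (5.80 ± 4.86) to Per2 (4.69 ± 1.07). In propyzamide Nr1d2 led with 9.003 ± 5.63 TPM (SD, n = 3) ahead of Nr1d1 at 8.68 ± 4.63, and neighbours lay within their spread down to Ciart at 4.02 ± 0.535. Per2 was again last, at 1.95 ± 1.48, below Ciart by more than either SD. Nr1d1 went from first in vehicle to second in propyzamide. Arntl in TPM was 9.24 and 2.36 in the vehicle libraries and 5.45, 4.56 and 2.91 in the propyzamide libraries.

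All counts of Per2 and most counts of Clock, Nr1d1, Nr1d2 and Tef were assigned to a single transcript of each. For Nr1d1 the 2721-base transcript took 98.1% to 100% of its counts across libraries, and for Clock the 9744-base transcript took 62.8% to 84.2%. For Per1 the leading transcript took 0% to 89.7%, and for Ciart 0% to 96.1%. At 4 to 73 counts per library these splits are too thin to compare between groups.

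The wider clock was followed through 24 more genes, of which 22 were tested. Nfil3, which competes with DBP and TEF at D-boxes, and Fbxl21, a ubiquitin ligase component that acts on cryptochromes, were below the filter, with at most 5 and 2 counts in a library. Of the 22 tested genes 1 was called higher and 0 lower, against 0.690% and 1.21% of all genes, and 3 passed at an unadjusted p under 0.05, where 18.2% of all genes did. By edgeR no gene passed among the 7 further core-loop genes (Npas2, Cry1, Cry2, Rora, Rorb, Bhlhe40 and Bhlhe41), whose median was -0.33 with 3 values above 0 and 4 below. In this group 1 gene had an unadjusted p under 0.05, namely Rorb, and DESeq2 called 0 of the 7. Of the kinases and turnover factors, such as Csnk1d and Csnk1e, the casein kinases that mark PER proteins, 0 of 6 passed by edgeR and 0 by DESeq2, and 0 had an unadjusted p under 0.05. Their median was -0.16. Of the 8 output genes all were above 0, with a median of 0.66, and 1 passed. Of all tested genes 50.9% were below 0. The shared direction depended on the scale. In mean TPM Por (29.8 in vehicle, 26.6 in propyzamide) and Tsc22d3 (33.9 and 29.1) were lower in propyzamide, and the other output genes were higher.

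Pdk4, a kinase that restrains glucose oxidation and is rhythmic in several tissues, was the output gene that passed. Its vehicle libraries had 1 and 0 counts and its propyzamide libraries 11, 27 and 26, which makes the ratio 41.0 (exact 95% interval 7.09 to 1642, counting error only; edgeR adjusted p = 0.0478). The call ended when vehicle replicate 1 (edgeR adjusted p = 0.295) or vehicle replicate 2 (0.241) was left out and with limma without a trend on log2(TPM + 1) (0.162). It also ended at 10 CPM in 2 libraries (0.0723) and with background subtracted (0.0748), where the fitted log2 fold changes were 5.14 and 7.47 against 5.23 in the main test. Fitted values of a gene this close to 0 depend on the prior count. The call held in 12 of the 17 alternatives that could be fitted for Pdk4. Those 17 include no fit without propyzamide replicate 2 or replicate 3, so whether the call depends on either of these libraries was not tested. Pdk4 is also induced by fasting and by PPAR receptors, and fat cells express it. The summed level of 8 adipocyte markers was 20.7 and 28.4 CPM in vehicle and 57.8, 118 and 338 CPM in propyzamide. Of the adipocyte markers 2 of 4 tested were called higher, where 0.690% of all tested genes were. Lep was at 0 counts in all propyzamide libraries. Plin1, below the filter, had 6 and 5 counts in vehicle and 1, 0 and 2 in propyzamide. Background alone would give Plin1 4.12 and 2.61 counts in vehicle. Cfd alone made up 192 of the 338 CPM in propyzamide replicate 3. The part of fat cells in the level of Pdk4 was not tested.

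Rorb, a receptor that activates through the ROR/REV-ERB element, had 14 and 10 counts in the vehicle libraries and 0, 2 and 0 in the propyzamide libraries, a ratio of 18.8 between the groups (exact 95% interval 4.66 to 164, counting error only; edgeR adjusted p = 0.111). Background alone would give 9.82 and 6.23 counts in vehicle over its exonic length, against the 14 and 10 observed. Rorb passed in 3 of the 14 alternatives that could be fitted for it. Tspan4, a tetraspanin, stood at 3.72 and 6.24 CPM in vehicle and at 10.5, 24.1 and 9.74 CPM with propyzamide (1.58 ± 0.63, log2 fold change, SE; edgeR adjusted p = 0.205). Btrc, a ubiquitin ligase component that acts on PER proteins, stood at 17.4 and 7.94 CPM in vehicle and at 8.16, 3.08 and 3.04 CPM with propyzamide (-1.36 ± 0.66; edgeR adjusted p = 0.302). Its groups overlapped.

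**Figure D4:**
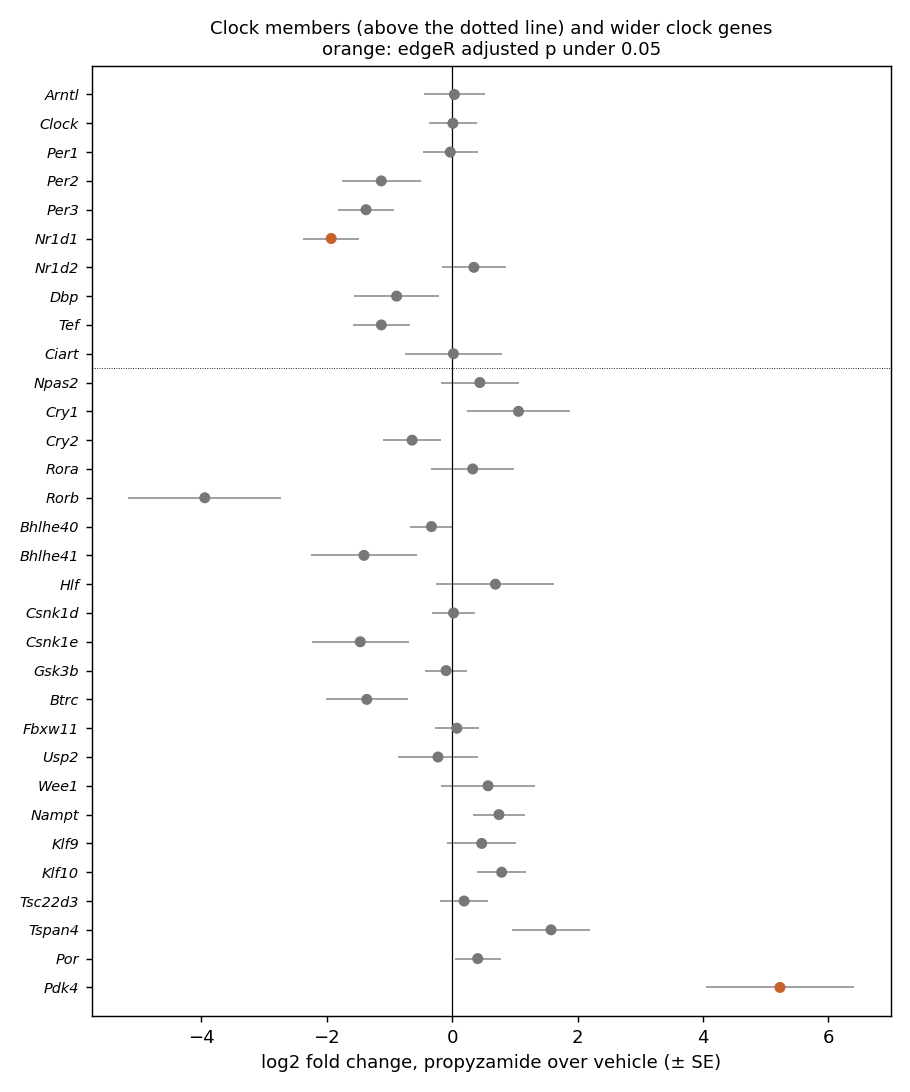
Log2 fold change of propyzamide over vehicle (horizontal axis, points with SE bars from edgeR) for the 10 clock genes above the dotted line and the 22 tested genes of the wider clock below it. Orange points have an edgeR adjusted p under 0.05, which are Nr1d1 at -1.93 and Pdk4 at 5.23, and the grey points missed the threshold.

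Genes whose profile over the 5 libraries came closest to that of Dbp and Arntl were looked up among 4304 protein-coding genes with a mean of at least 20 CPM. Likeness was the root mean square difference of centred log2(CPM + 1). For Dbp they were Slc4a4, a sodium bicarbonate cotransporter (0.20), Tnxb, the matrix protein tenascin-X (0.26), and Sun2, a protein of the nuclear envelope (0.32). Slc4a4 stood at 17.4 and 81.1 CPM in vehicle and at 9.86, 43.1 and 25.6 CPM in propyzamide, so that vehicle replicate 2 was its highest library too. For Arntl they were St14, Slc44a4 and Psmd12, at 0.083, 0.084 and 0.087. With 5 libraries many genes share a profile, and the likeness is a description.

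Marker lists show how the tissue pieces differed beside the clock genes. Over the 12 smooth-muscle markers all log2 fold changes were above 0 with a median of 2.06, DESeq2 called 6 and edgeR 0, although 11 had an unadjusted edgeR p under 0.05, and the summed level was 602 and 4123 CPM in vehicle against 6760 to 11601 CPM in propyzamide, with 0 markers at 0 counts in any library. The 8 absorptive-cell markers summed to 2093 and 3551 CPM in vehicle against 7759 to 11297 CPM in propyzamide. Of these 2 were called higher and 0 were at 0 counts. Their median log2 fold change was 1.85, with 6 above 0 and 2 below. Over all 12024 tested genes edgeR called 0.690% higher and 1.21% lower, and DESeq2 called 565. An unadjusted edgeR p under 0.05, in either direction, was found for 18.2% of all tested genes. The 8 goblet markers, summing to 681 to 6692 CPM in propyzamide, had 1 called lower, and Best2 was at 0 counts in propyzamide replicate 2. Epithelial and muscle markers of the labelled tissue were thus present in every library. Leukocyte markers were sparse, with 2 of 8 passing the filter, a summed level of 41.4 to 47.1 CPM in vehicle and 15.3 to 46.9 CPM in propyzamide, and Cd3e at 0 counts in all propyzamide libraries. The part of tissue make-up in the level of any clock gene was not tested.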

How the data were processed

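Each library has a deposited RSEM table that lists, per the file headers, the estimated count, TPM, FPKM and isoform percent of every transcript. RSEM, kallisto and GRCm38 are named per the submitters' processing notes, without versions or roles. The deposited FPKM and percent columns were not used. The labels' protocols give Trizol extraction and SMART-seq2 libraries. No label says whether the libraries come from separate mice or days, so the p-values reflect only how far these samples differ.

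For each of 55471 genes the authors' estimated counts were added over its transcripts (142647 in all) and rounded, and 99.6% of genes were found in GENCODE M21 (GRCm38). All 5 libraries entered edgeR 4.0.16 (R 4.3.3) with filterByExpr, TMM, a quasi-likelihood fit on group, Benjamini-Hochberg adjustment over 12024 genes and a threshold of 0.05. SEs come from the F statistic. Alternatives used DESeq2 1.42.0, limma 3.58.1 with a trend on log2 of the authors' TPM values plus 1 or 0.1, other scalings and filters, limma without a trend (added after the data were seen), a replicate block and each library left out. The steps were tested on simulated data, where the main test called 6.17% of 2-fold, 42.9% of 4-fold and 77.8% of 8-fold changes. No pair of libraries was a duplicate (chi-square per degree of freedom 12.4 to 39.3). Reads carry no molecular identifiers, so intervals cover counting error only.

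Members and lists were chosen with earlier results of these data known. Named were all 10 members, the wider clock genes past the threshold or among the 4 of smallest p, and the 3 genes most like Dbp and Arntl. Some genes of the wider clock lists are not reported here, and the counts of those lists leave them out.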

Additional observations from a re-analysis of the deposited data

How the results depend on the processing

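The number of genes called was 229 in the main test, 565 with DESeq2, 1327 without a filter on low counts, 148 at 10 CPM in 2 libraries, 490 with limma on log2(TPM + 1) (101 without a variance trend, an alternative added after seeing the data), 362 without rRNA-like and mitochondrial genes, 105 with background subtracted and 657 at an adjusted p under 0.1. It ranged from 36 to 499 with each library left out in turn. The number of members called was 1 in the main test and 0 with limma on log2(TPM + 1) or log2(TPM + 0.1), with or without a trend, with the transcript length offset and with background subtracted. It ranged from 0 to 1 with each library left out. The replicate numbers are not stated to pair mice. Same-numbered libraries deviated together with correlations of 0.17 and 0.15, and crossed pairs had -0.15 and -0.17. With 2 vehicle libraries the deviations from their mean mirror each other, so the crossed values repeat the same numbers. Pairing therefore cannot be read from them. With the replicate block, where the difference rests on replicates 1 and 2, 639 genes and 2 members, Nr1d1 and Per3, were called. The share of calls that were lower was 63.8%, against 74.8% with upper-quartile scaling, which moved the median of all genes to -0.14, 86.5% with limma on log2(TPM + 1), where that median was -0.39, 85.6% on log2(TPM + 0.1), where it was -0.47, 54.0% with DESeq2, 50.5% with background subtracted and 49.3% with the block. Limma without a trend gave 68.3% and 92.6%. Without a filter the median of all genes was -1.14. The count of Dbp-phase genes lower relative to Arntl was 5 in CPM and 8 in TPM, each with 1 or 0.1 added (one change at a time was added after seeing the data). In TPM the median of all genes also lay below the value for Arntl, and levels depend on how counts were split between transcripts.

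Of 189 values of the members under alternatives, 41 changed sign, all for members that missed the threshold. Some values repeat others, since the looser threshold reuses the main fit and limma without a trend reuses the fold changes with it. At 10 CPM in 2 libraries Arntl and Clock stood at -0.071 and -0.092, and with upper-quartile scaling Arntl, Clock and Ciart stood at -0.089, -0.12 and -0.10. With protein-coding genes only they stood at -0.0030, -0.027 and -0.022. Without rRNA-like and mitochondrial genes Clock and Ciart stood at -0.0082 and -0.0014, and with the length offset at -0.099 and -0.63. With background subtracted Clock stood at -0.059. With limma on log2(TPM + 1) Arntl, Clock, Nr1d2 and Ciart stood at -0.18, -0.55, -0.38 and -0.40, and on log2(TPM + 0.1) at -0.17, -0.62, -0.44 and -0.44, with or without a trend. Per1 stood at 0.094 without a filter and at 0.069 with the block. Without vehicle replicate 1 Nr1d2 and Ciart stood at -0.070 and -0.88, and without vehicle replicate 2 Arntl, Per1 and Dbp at -0.16, 0.88 and 0.58. Without propyzamide replicate 1 Arntl stood at -0.096, without replicate 2 Arntl, Clock and Nr1d2 at -0.069, -0.37 and -0.35, and without replicate 3 Ciart at -0.21. With each library left out Arntl ranged from -0.16 to 0.34, Clock from -0.37 to 0.20, Per1 from -0.60 to 0.88, Nr1d2 from -0.35 to 0.92, Dbp from -1.63 to 0.58 and Ciart from -0.88 to 2.26, and Nr1d1 from -2.50 to -1.0, Per2 from -1.75 to -0.10, Per3 from -1.90 to -0.56 and Tef from -1.75 to -0.069. The cause was not tested. Nr1d1, Per2, Per3 and Tef were below 0 in all 19 alternatives, closest to 0 without vehicle replicate 2.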
